A study of Mus musculus with 10 samples.

Results

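The genes of oxidative phosphorylation were followed across 10 mouse pancreatic tumours, 5 labelled Grem1 wild type and 5 labelled Grem1 deleted. The members are the rows of the gene count table whose symbols begin with the usual prefixes of the respiratory chain and ATP synthase, together with the 4 succinate dehydrogenase genes. That gives 118 of the 55487 rows, 12 of them encoded in mitochondrial DNA and 106 in the nucleus. The mitochondrial members comprise 7 subunits of complex I, 3 of complex IV and 2 of ATP synthase. The nuclear members comprise 40 rows named for complex I, 8 complex I assembly factors named Ndufaf, 4 genes of complex II, 8 of complex III, 21 of complex IV and 18 of ATP synthase. Of the 40, the annotation types 36 as protein-coding, Ndufa11b, Ndufb4c and Ndufs6b as processed pseudogenes and Ndufb1-ps as a non-coding RNA, and among the 21 of complex IV Cox6c2 is a processed pseudogene. A further 7 nuclear members have names that end in -ps, the mark of a pseudogene, and 6 rows with such a mark and a number were left out. The prefix for mitochondrial cytochrome b does not match the symbol in the table, mt-Cytb, so that gene is no member and its values stand beside the others as a non-member.

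All 10 tumours came from KPF mice, a pancreatic cancer model whose alleles the labels do not spell out, on a C57BL/6J background, and the mice were 6 to 12 weeks old. From 5 weeks of age the wild-type group was given peanut oil and the other group tamoxifen at 100 mg per kg, daily for 5 days, so that genotype and drug cannot be told apart. Neither the recombinase that tamoxifen acts on nor its driver is named by the labels. Bulk tumour is the material named for each sample, whereas the extraction text speaks of cells sorted by flow cytometry, and polyadenylated RNA was sequenced. Replicates are called biological, without naming the animals, so the p-values measure the spread between these tumours. Each title also carries a code in brackets, whose meaning the labels do not give, and some tumours share its leading number: wild-type tumour 1 and deleted-labelled tumour 2, wild-type tumours 2 and 3 and deleted-labelled tumour 3, and wild-type tumours 4 and 5 and deleted-labelled tumour 5. Deleted-labelled tumours 1 and 4 have a number of their own.

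Oxidative phosphorylation passes electrons from NADH and succinate along complexes I to IV of the inner mitochondrial membrane to oxygen, and the proton gradient that this builds drives ATP synthase, also called complex V. Mitochondrial DNA encodes a small set of core subunits, transcribed as long polycistronic RNAs inside the organelle, while all of complex II and most subunits of the other complexes are encoded in the nucleus and imported. Pancreatic tumours are known for dense stroma, poor perfusion and glycolytic metabolism, and their cells still respire.

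Libraries held 10159891 to 18571519 estimated counts. Grem1, a secreted antagonist of bone morphogenetic proteins and the gene named in the labels, stood at 15.7, 43.1, 23.0, 3.97 and 9.48 CPM (counts divided by the library total after scaling by trimmed means) in wild-type tumours 1 to 5 and at 47.6, 110.1, 12.6, 6.83 and 23.7 CPM in tumours 1 to 5 labelled deleted. The groups overlapped, with a log2 fold change of 1.08 (SE 0.79, adjusted p = 0.761 by edgeR), so the counts of the whole gene do not separate the labels, and the second group is called deleted-labelled throughout. The 10 libraries all differed by more than counting noise.

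Summed over the 12 mitochondrial members, counts took 2.09, 1.69, 1.84, 1.65 and 1.64% of the library in wild-type tumours 1 to 5. The deleted-labelled tumours 1 to 5 had 1.151, 2.05, 1.52, 1.64 and 1.68%. Deleted-labelled tumour 1 was the lowest of the 10, wild-type tumour 1 and deleted-labelled tumour 2 were the highest, and the other values of both groups overlapped. The means were 1.78 ± 0.191% and 1.61 ± 0.325% (SD, n = 5 each). Near-identical copies on chromosome 1, described further on, are not in these shares and took 0.232% to 0.545% of the counts. With them added, a choice made after the data were seen, the means were 2.22 ± 0.259% and 1.99 ± 0.437%. In bulk tissue, fewer cells of a mitochondria-rich type and less mitochondrial RNA per cell cannot be told apart.

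The nuclear members together took 0.680, 0.712, 0.706, 0.621 and 0.625% of counts in wild-type tumours 1 to 5. In the deleted-labelled tumours they took 0.653, 0.866, 0.641, 0.655 and 0.587%. Deleted-labelled tumour 2 stood above the other 9, which lay close together, and tumour 5 of the same group was the lowest. The group means of 0.669 ± 0.0436% and 0.681 ± 0.107% (SD, n = 5 each) differed by less than either SD.

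The ratio of mitochondrial to nuclear member counts does not depend on library size. It was 3.08, 2.37, 2.60, 2.66 and 2.62 in wild-type tumours 1 to 5 and 1.76, 2.37, 2.37, 2.51 and 2.86 in the deleted-labelled ones. Means were 2.67 ± 0.256 and 2.37 ± 0.396 (SD, n = 5 each), with 1 low value, that of deleted-labelled tumour 1. On the log2 scale the deleted-labelled mean was lower by a difference of -0.18, against SDs of 0.14 and 0.26. Without deleted-labelled tumour 1 that difference was -0.08, and it was -0.05 without tumours 1 and 2 of that group. With the chromosome 1 copies added to the mitochondrial counts, the mean ratios were 3.32 ± 0.335 and 2.93 ± 0.541. The log2 difference was then -0.20.

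Among tumours that share a code number, the mitochondrial share of deleted-labelled tumour 2 differed by -0.0388 percentage points from wild-type tumour 1, that of deleted-labelled tumour 3 by -0.240 from the mean of wild-type tumours 2 and 3, and that of deleted-labelled tumour 5 by 0.0314 from the mean of wild-type tumours 4 and 5. In the same order the nuclear share differed by 0.185, -0.0678 and -0.0356 percentage points and the log2 ratio by -0.37, -0.06 and 0.11. For each measure the sign was not the same in all 3 sets, and each set rests on 1 deleted-labelled tumour. With the code number as a block, a choice made after the data were seen, the difference in mitochondrial share was -0.0863 percentage points. Without the block, over all tumours, it was -0.172. The blocked difference in log2 ratio was -0.08, and edgeR called 0 genes. These blocked values rest on the 3 sets alone, since deleted-labelled tumours 1 and 4 share their code number with no other tumour.

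**Figure D1:**
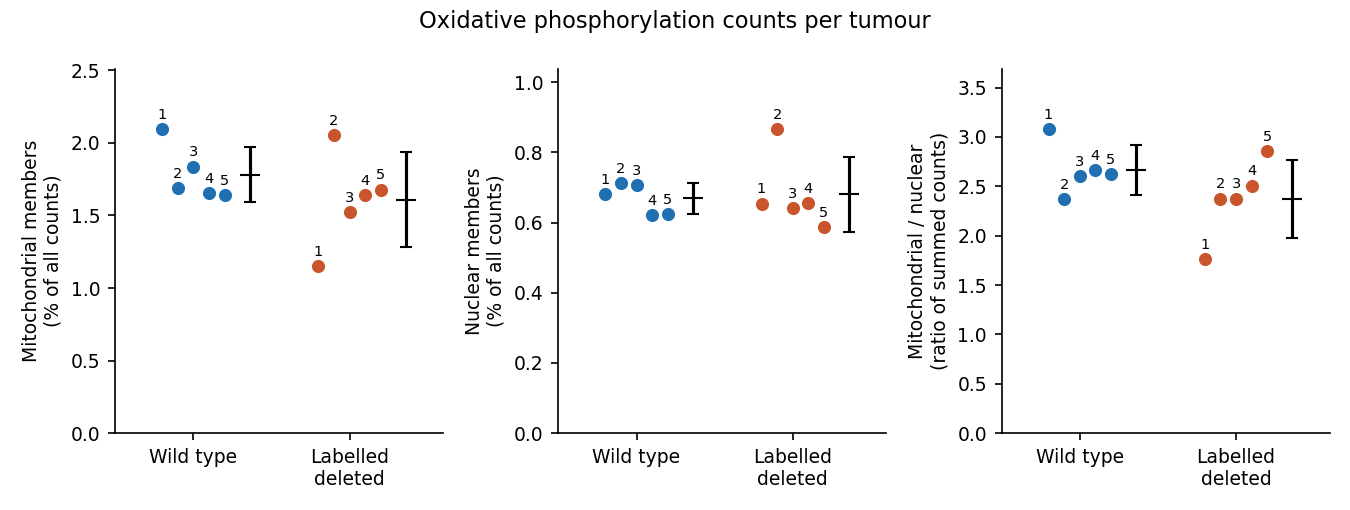
Share of all counts in the mitochondrial members (left) and in the nuclear members (middle), both in percent, and the ratio of the 2 sums (right), for each of the 10 tumours; points carry the replicate number, and black bars are the group mean ± SD (n = 5). Deleted-labelled tumour 1 has the lowest mitochondrial share, 1.15%, and the lowest ratio, 1.76, while deleted-labelled tumour 2 has the highest nuclear share, 0.866%.

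No member was called between the groups. The comparison used edgeR's quasi-likelihood test on 16565 genes with Benjamini-Hochberg adjustment, and 103 members passed its filter on low counts: all 12 mitochondrial and 91 nuclear. Among all tested genes the share called at an adjusted p of 0.05 was 0%, the lowest adjusted p being 0.759. At an unadjusted p of 0.05, 5.93% of all tested genes passed (3.47% higher and 2.46% lower in the deleted-labelled group), as did 0 of the 103 members, and limma-voom also called 0 genes. DESeq2 called 7 of 28869 genes (0.0242%), none of them a member. In 0.93% of the tested genes the groups did not overlap, and this held for 0 of the 103 members. The median of all tested genes was a log2 fold change of 0.03, with 44.9% below 0 and 55.1% above. Of the members, 43 were above 0 and 60 below, around a median of -0.02.

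**Figure D2:**
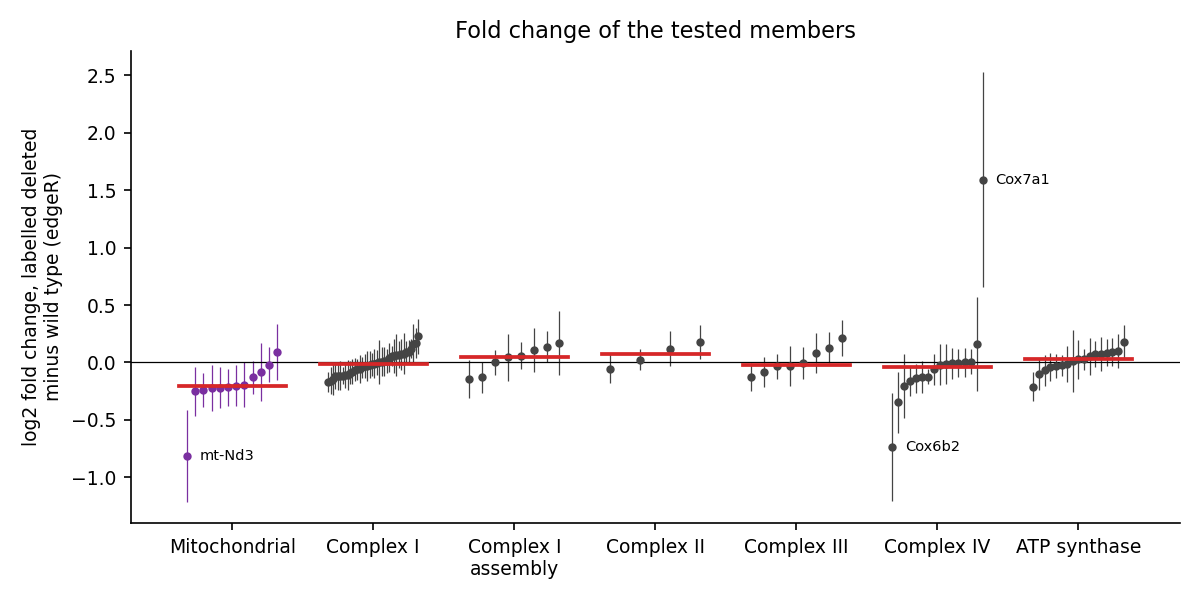
edgeR log2 fold change, deleted-labelled minus wild type, of the 103 tested members (points, ± SE) in order within each class, with the class median in red and the mitochondrial members in purple. Mitochondrial points lie mostly below 0 around a median of -0.21, the medians of the nuclear classes lie between -0.04 and 0.07, and Cox7a1, Cox6b2 and mt-Nd3 stand farthest from 0.

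Of the 12 mitochondrial members, 11 had a log2 fold change below 0 and 1, mt-Nd4l, above it. Their median was -0.21 over a range of -0.81 to 0.09, where 44.9% of all genes were below 0, and none passed the test. These 12 share a genome, its polycistronic transcripts and each library, so they are not 12 separate observations.

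The most abundant member per length was mt-Co1 (chrM:5328-6872 on build GRCm38), the catalytic subunit of cytochrome c oxidase, at 5143 ± 583 CPM per kb of exon in wild-type tumours (SD, n = 5). Next came mt-Co2, which takes electrons from cytochrome c, at 3375 ± 461 CPM per kb, and mt-Nd1, which helps form the quinone site of complex I, at 2006 ± 205. Below these, mt-Nd4 at 1281 ± 169.7, mt-Co3 at 1219 ± 285 and mt-Atp8 at 1172 ± 138 CPM per kb did not differ beyond their spread. The order went on with mt-Nd2 at 785 ± 97.4, mt-Nd5 at 691 ± 49.8, mt-Nd6 at 480.3 ± 45.9 and mt-Atp6 at 456 ± 163 CPM per kb, of which the last pair lay within 1 SD of each other. The lowest were mt-Nd3 at 211 ± 63.9 and mt-Nd4l at 141 ± 45.6 CPM per kb. As printed further on, mt-Co2, mt-Co3, mt-Atp6, mt-Nd3 and mt-Nd4l share nearly all of their bases with nuclear copies and mt-Nd4 shares 876 of 1378, which bears on this order: with the copy's counts added, mt-Co3 stood at 3124 CPM per kb. Of the 50-base stretches of mt-Co1, 51.1% also occur in other annotated genes, as do 8.19% for mt-Nd2 and 7.61% for mt-Nd5. No counts were added for these members, so their levels carry the same limit.

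Among the complex I subunits, mt-Nd1 stood at 2081, 2102, 1978, 1791 and 1646 CPM in wild-type tumours 1 to 5 and at 1154, 2232, 1303, 1871 and 1783 CPM in the deleted-labelled tumours. Deleted-labelled tumours 1 and 3 were the lowest, tumour 2 of that group was the highest, and tumours 4 and 5 lay among the wild-type values. The log2 fold change of -0.20 (SE 0.18, adjusted p = 0.785 by edgeR) did not pass. The proton-pumping subunit mt-Nd4 read 1956, 1412, 1990.3, 1786 and 1683 CPM against 869, 2015, 1427, 1555 and 1714 CPM. Deleted-labelled tumour 1 was the lowest by far, tumour 2 of its group the highest, and the log2 fold change of -0.22 (SE 0.20, adjusted p = 0.789 by edgeR) did not pass. For mt-Nd5, another pumping subunit, the values were 1368, 1144, 1298, 1299 and 1191 CPM and 708, 1325, 924, 1183 and 1278 CPM, with the same tumour lowest. The log2 fold change of -0.22 (SE 0.16, adjusted p = 0.762 by edgeR) was close to that of mt-Nd2 at -0.25 and of mt-Nd6 at -0.22. The last, mt-Nd6, is the member encoded on the opposite strand (chrM:13552-14070), and it ranged from 136 to 282 CPM, while mt-Nd2 ranged from 361 to 921 CPM.

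Of the complex IV and ATP synthase subunits, mt-Co1 had 9432, 7756, 8012, 7454 and 7077 CPM in wild-type tumours and 5855, 9622, 6509, 6908 and 7383 CPM in deleted-labelled ones. Deleted-labelled tumour 2 gave the highest value, tumour 1 the lowest, and the groups overlapped with a log2 fold change of -0.13 (SE 0.14, adjusted p = 0.818 by edgeR). ATP synthase subunit 8, mt-Atp8 (chrM:7766-7969), had 264, 258, 251, 227 and 196 CPM against 137, 209, 211, 209 and 244 CPM. Deleted-labelled tumour 1 lay apart from the other 4 of its group, which overlapped the wild-type values, and the log2 fold change of -0.24 (SE 0.15, adjusted p = 0.759 by edgeR) did not pass. In the annotation mt-Atp8 overlaps mt-Atp6 by 43 bases, 21.1% of its own length, mt-Nd4l overlaps mt-Nd4 by 7 bases, and mt-Nd5 overlaps mt-Nd6 on the opposite strand by 14 bases. Reads that lie within an overlap on 1 strand cannot be told apart, and the strand setting of the counting is not given. Cytochrome b of complex III, mt-Cytb, no member by the rule, had 2635, 1885, 2625, 2318 and 2211 CPM and 1158, 2514, 1863, 2082 and 2091 CPM, with a log2 fold change of -0.27 (SE 0.19, adjusted p = 0.761 by edgeR).

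The smallest p of any member belonged to mt-Nd3 (chrM:9459-9806), a small complex I subunit, with 92.8, 70.7, 98.3, 45.1 and 60.5 CPM in wild-type tumours and 16.6, 66.6, 21.8, 36.4 and 67.3 CPM in deleted-labelled ones. Tumours 1, 3 and 4 of the deleted-labelled group were below every wild-type tumour, and tumours 2 and 5 were among them. Its log2 fold change of -0.81 (SE 0.40, adjusted p = 0.759 by edgeR) did not pass the test.

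That gene is 1 of 5 mitochondrial members with a near-identical copy on chromosome 1, listed in the annotation as a pseudogene with its own row of counts. The ends of a pair of them are shown because the shared letters decide how far a read can be assigned. Each is printed 5′ to 3′ on its own coding strand from GRCm38, and the capitals mark the bases that the member has beyond the end of the copy's model. The pieces lie at chrM:8548-8607 (+), chr1:24613974-24614030 (-), chrM:9747-9806 (+) and chr1:24612775-24612831 (-).
mt-Atp6: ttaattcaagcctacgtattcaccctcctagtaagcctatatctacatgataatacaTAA
Gm10925: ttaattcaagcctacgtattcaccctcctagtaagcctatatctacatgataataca
mt-Nd3: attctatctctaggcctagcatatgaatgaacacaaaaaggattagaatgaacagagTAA
Gm28438: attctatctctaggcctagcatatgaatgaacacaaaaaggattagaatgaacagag
Over the whole aligned length, 678 bases of mt-Atp6 and Gm10925 held 0 mismatches. Over 345 bases of mt-Nd3 and Gm28438 there was 1, T3C, counted from the first base of mt-Nd3, with the base of mt-Nd3 first. The other pairs, mt-Co2 with Gm28661, mt-Co3 with Gm28437 and mt-Nd4l with Gm10222, held 0 mismatches over 681, 783 and 294 bases. Gm28439 matched mt-Nd4 over 876 of 1378 bases and was listed at 0 counts. No stretch of 50 bases of mt-Nd1, mt-Nd6, mt-Atp8 or mt-Cytb occurred in the annotated transcripts of another gene.

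The authors' counts were divided between each member and its copy in shares that varied by tumour. The copy held 86.2% of the counts of the mt-Atp6 pair, 76.3% of the mt-Nd4l pair, 74.98% of the mt-Nd3 pair and 62.0% of the mt-Co3 pair over all libraries. For mt-Co2 the copy's share was 26.6, 29.2, 13.8, 28.6 and 4.84% in wild-type tumours 1 to 5 and 0.0141, 12.0, 1.40, 23.2 and 20.8% in deleted-labelled tumours. It was almost 0 in deleted-labelled tumour 1 and highest in wild-type tumours 2 and 4. For mt-Nd3 the shares were 69.9, 67.8, 66.1, 78.5 and 73.2% and 86.6, 76.3, 89.2, 79.9 and 71.4%, highest in the deleted-labelled tumours 1 and 3 that had the fewest counts of mt-Nd3 itself.

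**Figure D3:**
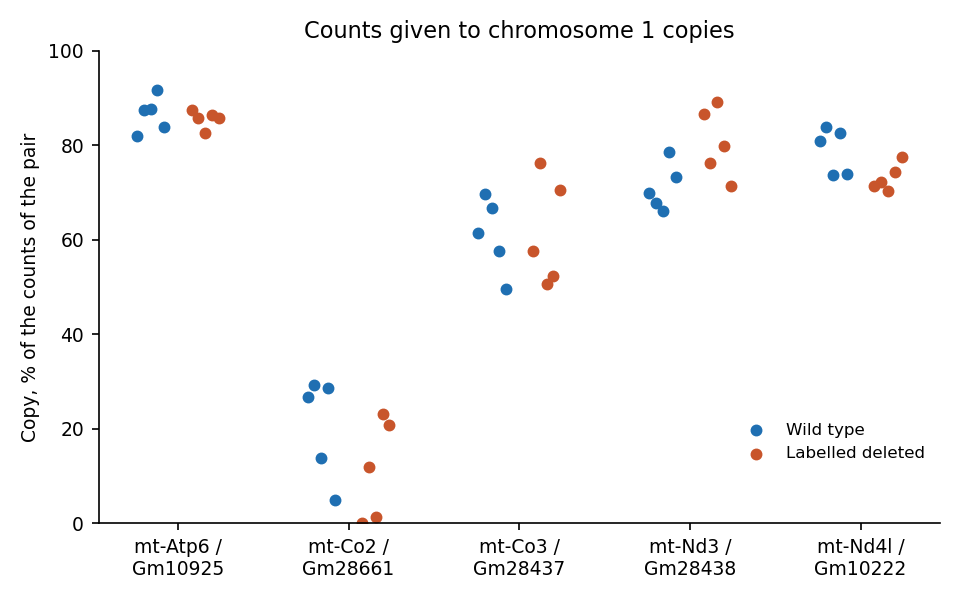
Share of the summed counts of each member and its chromosome 1 copy that was given to the copy (percent), for wild-type (blue) and deleted-labelled (orange) tumours, 5 points each in replicate order. The share stays between 82.0% and 91.8% for mt-Atp6 and runs from 0.0141% to 29.2% for mt-Co2.

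Adding each copy to its member, a choice made after the data were seen, moved mt-Nd3 from -0.81 to a log2 fold change of -0.29 (SE 0.21) and turned mt-Nd4l from 0.09 to -0.23 (SE 0.19). The pair of mt-Nd3 and Gm28438 then had 308, 219, 290.4, 209.9 and 226 CPM in wild-type tumours and 124, 281, 202, 181 and 235 CPM in deleted-labelled tumours. Tumours 1, 3 and 4 of the deleted-labelled group were still below the wild-type range, the last pair by less. For mt-Co2 the log2 fold change went from -0.02 to -0.17 (SE 0.17), for mt-Atp6 from -0.08 to -0.16 (SE 0.15) and for mt-Co3 from -0.19 to -0.12 (SE 0.16). All 12 mitochondrial members were then below 0, in a narrower range of -0.29 to -0.12 around a median of -0.22, and none passed edgeR's test. The SD over the 10 tumours shrank from 0.85 to 0.38 for mt-Nd3 and from 0.42 to 0.25 for mt-Atp6 on the log2 CPM scale, and grew from 0.23 to 0.29 for mt-Co2. Per kb, the pairs of mt-Co2 at 4283, mt-Atp6 at 3350.4 and mt-Co3 at 3124 CPM in wild-type tumours stood next below mt-Co1.

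The nuclear members varied mainly in 2 tumours of the deleted-labelled group. Deleted-labelled tumour 2 was the highest of the 10 in 60 of the 91 tested nuclear members (65.9%), where it was the highest in 13.8% of all tested genes. Deleted-labelled tumour 5 was the lowest in 37 (40.7%), against 5.43% of all tested genes. Deleted-labelled tumour 1 was the lowest in 27 nuclear members (29.7%), close to its 29.4% of all tested genes, and in 9 of the 12 mitochondrial members (75%). Without deleted-labelled tumour 2, the median SD of nuclear members over the tumours went from 0.200 to 0.153 on the log2 CPM scale. For the 45 nuclear members at middle levels it went from 0.197 to 0.146, and for 4065 other genes at the same levels from 0.201 to 0.194. Without deleted-labelled tumours 1 and 2, the median SD of the mitochondrial members went from 0.328 to 0.194.

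**Figure D4:**
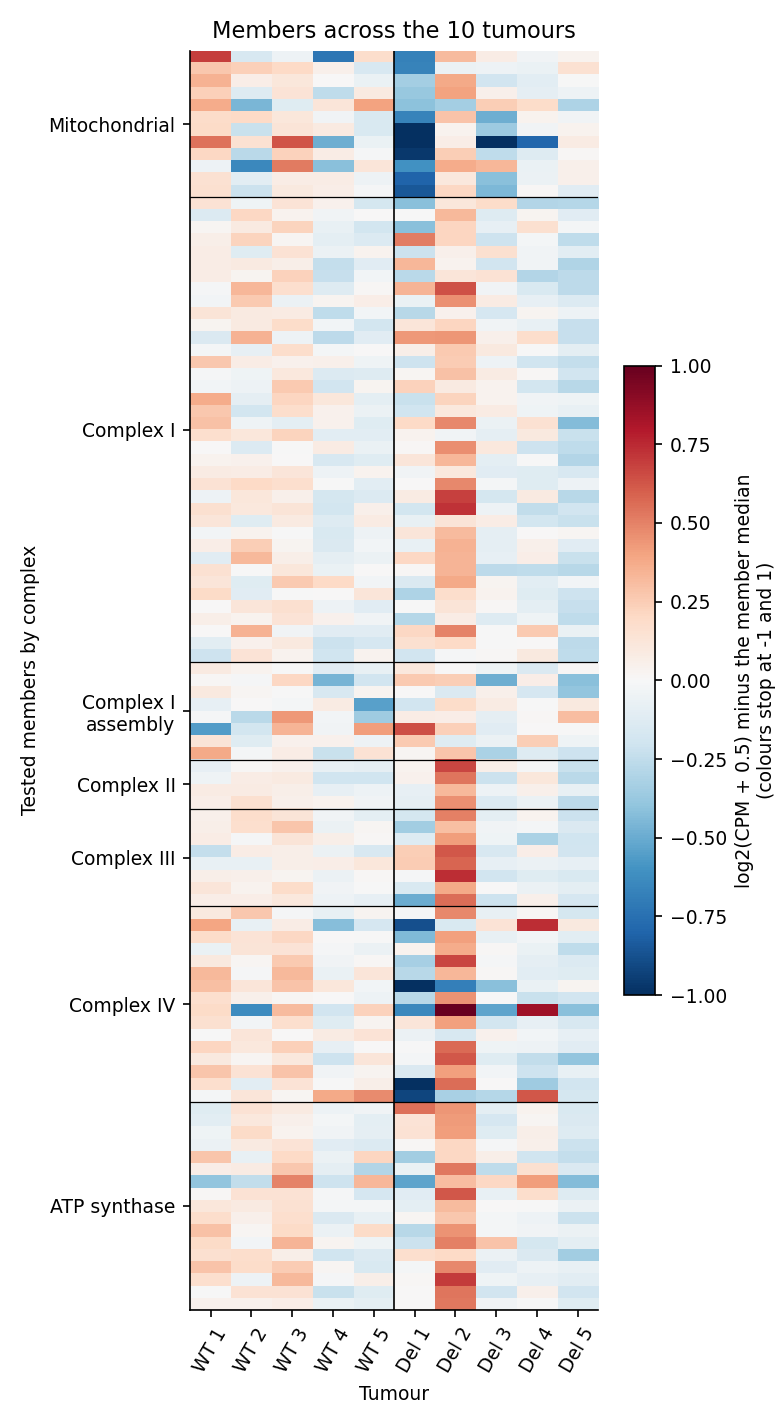
Deviation of each of the 103 tested members (rows, grouped by complex) from its own median over the 10 tumours (columns), as log2(CPM + 0.5), with colours stopping at -1 and 1. The column of deleted-labelled tumour 2 is red through the nuclear complexes, that of deleted-labelled tumour 5 is mostly pale blue, and deleted-labelled tumour 1 is blue in the mitochondrial rows and mixed elsewhere.

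Markers of other cell types differed in these tumours. The summed level of 12 intestinal epithelium genes, 5 of which passed the count filter, was 4759 CPM in deleted-labelled tumour 2 and 111 to 356 CPM in the other 9. Apoa4, an intestinal apolipoprotein, had 897 CPM there and at most 4.72 CPM elsewhere. A list of 10 skeletal and smooth muscle genes summed to 383 CPM in that tumour and to 23.4 to 178 CPM elsewhere, with Myh4 at 0 in all libraries and Ckm, the muscle creatine kinase, at 0.852 CPM or less. In that tumour the sum was mostly Des at 163, Myh11 at 170 and Cnn1 at 47.2 CPM. Acta1, Myh1, Myh2, Tnnt3 and Myl1 were not at their highest there. In deleted-labelled tumour 1 the 9 epithelial and ductal genes summed to 1985 CPM, against 3671 to 6235 CPM in the others, the 6 proliferation genes to 939 CPM against 219 to 449 CPM, and the 9 fibroblast genes to 8142 CPM against 15237 to 28240 CPM. Of the epithelial genes 8 of 9, all but Sox9, had their lowest level in that tumour, and of the fibroblast genes 6 of 9, 3 of them the collagens that make up most of the sum, while Pdgfrb was at its highest there with 353 CPM and Pdgfra stood at 227 CPM. The 14 acinar genes ran from 29.7 to 19786 CPM and were high in tumours of both groups, 1 of them deleted-labelled tumour 5 at 16649.5 CPM. The part of these cell types in the levels of the members was not tested.

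Complex I, the NADH dehydrogenase, had 38 tested nuclear members, 17 with a log2 fold change above 0 and 21 below, around a median of -0.01. They include the pseudogene Ndufb4c, all of whose 50-base words occur in Ndufb4 and which was given 2282 counts against 1754 for that gene, so the level of both is uncertain, and the non-coding Ndufb1-ps. The 36 protein-coding ones had 17 above 0 and 19 below. The summed level of the complex I members was 1744, 1824, 1808, 1593 and 1637 CPM in wild-type tumours and 1726, 2071, 1669, 1670.1 and 1503 CPM in deleted-labelled tumours, overlapping but for the highest and lowest, deleted-labelled tumours 2 and 5. The smallest p was that of Ndufs8 (chromosome 19, 3908863 to 3912774), which carries iron-sulphur clusters towards the quinone site, with 47.5, 46.7, 50.04, 46.8 and 44.3 CPM in wild-type tumours and 37.2, 47.9, 41.5, 44.1 and 38.06 CPM in deleted-labelled ones. All but tumour 2 of the deleted-labelled group lay below every wild-type tumour, and the log2 fold change of -0.17 (SE 0.09, adjusted p = 0.759 by edgeR) did not pass. Ndufb7, an accessory subunit on the intermembrane side, had a log2 fold change of -0.12 (SE 0.08, adjusted p = 0.759 by edgeR). The most abundant per length were the accessory subunits Ndufa2 at 92.7 ± 9.11 and Ndufa8 at 74.7 ± 7.09 CPM per kb in wild-type tumours. Length is that of all annotated exons merged, not of the expressed transcript, so such orders among nuclear members depend on the annotation. Ndufa2 ranged from 43.5 to 67.8 CPM with deleted-labelled tumour 1 highest, and Ndufa8 from 53.7 to 73.6 CPM with tumour 2 of that group highest.

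Of the 8 complex I assembly factors, 6 were above 0 and 2 below, with a median log2 fold change of 0.05. Ndufaf1, which helps build the membrane arm, varied least of all nuclear members, with 12.3, 11.7, 11.5, 10.6 and 10.9 CPM against 12.4, 11.5, 11.2, 10.4 and 11.6 CPM and an SD of 0.083 on the log2 CPM scale. Ndufaf4 had 16.8, 17.9, 17.6, 18.9 and 12.1 CPM in wild-type tumours, where tumour 5 stood below the rest, and 15.6, 20.3, 18.9, 17.8 and 19.1 CPM in deleted-labelled ones, with a log2 fold change of 0.14 (SE 0.14, adjusted p = 0.804 by edgeR). Ndufaf3, its partner in early assembly, had a log2 fold change of -0.13 (SE 0.14, adjusted p = 0.81 by edgeR). Per length the most abundant was Ndufaf8 at 13.1 ± 2.12 CPM per kb, and none of the 8 passed the test.

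Complex II, succinate dehydrogenase, is the link between the tricarboxylic acid cycle and the chain, and its 4 genes, 3 above 0 and 1 below, had 0.07 as their median log2 fold change. The flavoprotein Sdha (chromosome 13, 74322254 to 74350280), where succinate is oxidised, had 179, 191, 195, 179 and 178 CPM in wild-type tumours and 194, 300.2, 197, 187 and 163 CPM in deleted-labelled ones. Apart from deleted-labelled tumour 2, the 9 other values lay close together and overlapped. The log2 fold change of 0.18 (SE 0.15, adjusted p = 0.781 by edgeR) became -0.02 without deleted-labelled tumours 1 and 2. The iron-sulphur subunit Sdhb read 66.1, 72.0, 72.9, 59.4 and 59.6 CPM against 70.6, 99.1, 58.9, 73.8 and 56.5 CPM, again with deleted-labelled tumour 2 highest, and the membrane anchor Sdhd read 84.7, 90.3, 83.6, 82.9 and 78.8 against 76.1, 111, 73.4, 77.5 and 67.3 CPM. Their log2 fold changes were 0.12 (SE 0.15) and -0.05 (SE 0.13). The summed level of the 4 was 415 ± 20.8 CPM in wild-type and 443 ± 96.2 CPM in deleted-labelled tumours (SD, n = 5 each).

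Complex III, cytochrome bc1, had 8 tested nuclear members, 3 above 0 and 5 below, around a median of -0.02. The core protein Uqcrc1 (chromosome 9, 108936633 to 108949623) had 117, 145, 144, 133 and 124 CPM in wild-type tumours and 164, 213, 124, 145 and 121 CPM in deleted-labelled ones. Deleted-labelled tumours 2 and 1 were the highest and the rest overlapped, with a log2 fold change of 0.21 (SE 0.15, adjusted p = 0.761 by edgeR) that became -0.03 without these tumours. The small subunits Uqcr11 at 79.0 ± 7.43 and Uqcr10 at 76.3 ± 6.05 CPM per kb were the most abundant per length and did not differ from each other beyond their spread. Uqcr11 had 49.2, 53.2, 57.5, 45.3 and 47.9 CPM against 37.0, 58.5, 46.2, 46.8 and 42.7 CPM, lowest in deleted-labelled tumour 1, with a log2 fold change of -0.13 (SE 0.12, adjusted p = 0.793 by edgeR). Uqcr10 had a log2 fold change of -0.01 (SE 0.14, adjusted p = 0.991 by edgeR).

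Complex IV, cytochrome c oxidase, had 16 tested nuclear members, 3 above 0 and 13 below, around a median of -0.04, where 44.9% of all tested genes were below 0. Its summed level was 1463, 1436, 1468, 1302 and 1378 CPM in wild-type tumours and 1179, 1790.4, 1301, 1254 and 1194 CPM in deleted-labelled tumours. Deleted-labelled tumour 2 was the highest of all and the other 4 of its group were below every wild-type tumour, tumour 3 only just. Cox7a2l, which joins complex III and complex IV in supercomplexes, had 160.1, 174, 160.3, 169.9 and 177 CPM in wild-type and 154, 144, 165, 157 and 151 CPM in deleted-labelled tumours. Here deleted-labelled tumour 2 was the lowest of the 10, the reverse of most nuclear members, and the log2 fold change of -0.13 (SE 0.07, adjusted p = 0.759 by edgeR) did not pass. Its level had the lowest correlation with the nuclear sum of any member, r = -0.43 over the 10 tumours.

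Several complex IV subunits exist as isoforms with different tissue use, and levels within a pair were compared per kb of exon, a length set by the annotation. Cox4i1, the common form of the regulatory subunit that binds first in assembly, had 285, 321, 264, 252 and 272 CPM and 264, 372, 253, 268 and 236 CPM, while the lung and hypoxia form Cox4i2 made up 0.264% to 1.54% of the pair. Cox6a1 had 152, 144, 171, 139 and 144 CPM and 113, 226, 141, 134 and 129 CPM, with deleted-labelled tumour 2 highest and tumour 1 lowest, and its heart and muscle form Cox6a2 was at most 0.361% of the pair. Cox8a had 149, 136, 149.96, 120.0 and 126 CPM and 111, 164, 120.4, 106 and 117 CPM, and Cox8b was untested, with 5 counts in all libraries. The log2 fold changes of Cox4i1, Cox6a1 and Cox8a were -0.00062, -0.01 and -0.14, against SEs of 0.13, 0.17 and 0.13.

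The muscle form Cox7a1 (chromosome 7, 30184144 to 30186078) had the fold change farthest from 0 of all members. It stood at 0.865, 0.273, 0.991, 0.549 and 0.907 CPM in wild-type tumours and at 0.267, 8.16, 0.328, 1.65 and 0.394 CPM in deleted-labelled ones, so that 1 tumour, deleted-labelled tumour 2, was far above the other 9. Its log2 fold change of 1.59 (SE 0.94, adjusted p = 0.759 by edgeR) became -0.05 without that tumour. It rests on 203 counts in all libraries. Of the pair with the common form Cox7a2, Cox7a1 made up 2.63, 0.964, 2.98, 2.04 and 3.00% in wild-type tumours and 0.845, 17.6, 1.29, 5.75 and 1.52% in deleted-labelled tumours. Cox7a2 itself ranged from 44.5 to 67.3 CPM with a log2 fold change of -0.01 (SE 0.12, adjusted p = 0.992 by edgeR).

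Cox6b2, the testis form of subunit 6b (chromosome 7, 4751792 to 4753094), had 7.08, 6.19, 7.02, 6.16 and 5.55 CPM in wild-type and 0.445, 3.34, 4.10, 5.39 and 5.79 CPM in deleted-labelled tumours. Deleted-labelled tumour 1 had almost none, tumours 2, 3 and 4 were below the wild-type range, and tumour 5 was inside it. The log2 fold change of -0.74 (SE 0.47, adjusted p = 0.759 by edgeR) did not pass. As a share of the pair with Cox6b1 per kb it was 3.63, 3.98, 3.601, 4.11 and 3.28% in wild-type and 0.357, 1.73, 2.64, 3.71 and 4.02% in deleted-labelled tumours. Cox6b1 had a log2 fold change of -0.17 (SE 0.13, adjusted p = 0.765 by edgeR).

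Ndufa4, named for complex I and now known as a subunit of complex IV, was low in 1 tumour. It had 90.3, 74.4, 88.4, 80.2 and 83.8 CPM in wild-type tumours and 29.7, 119, 80.4, 62.7 and 70.2 CPM in deleted-labelled ones, so that tumour 1 of the deleted-labelled group was far below and tumour 2 above all others, with tumours 4 and 5 just under the wild-type range. The log2 fold change of -0.20 (SE 0.28, adjusted p = 0.858 by edgeR) came to -0.01 without deleted-labelled tumour 1. Its hypoxia-induced paralogue Ndufa4l2 had 10.1, 11.1, 10.3, 13.4 and 14.3 CPM and 5.16, 8.02, 8.29, 15.96 and 8.94 CPM, with a log2 fold change of -0.35 (SE 0.27, adjusted p = 0.765 by edgeR). Ndufa4l2 made up 12.3, 15.8, 12.8, 17.4 and 17.7% of the pair per kb in wild-type and 18.0, 7.85, 11.5, 24.3 and 13.8% in deleted-labelled tumours, highest in deleted-labelled tumour 4 and lowest in tumour 2.

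ATP synthase had 17 tested nuclear members, 10 above 0 and 7 below, around a median of 0.03. Atp5a1 and Atp5b, both of the F1 head, were its most abundant genes per length at 172 ± 13.2 and 153 ± 9.80 CPM per kb in wild-type tumours. Atp5a1 had 494, 595, 570.4, 517 and 523 CPM against 789, 731, 502, 551 and 482 CPM, with deleted-labelled tumours 1 and 2 above the rest and a log2 fold change of 0.18 (SE 0.15, adjusted p = 0.78 by edgeR) that became -0.08 without them. Atp5b had 609, 704, 677, 647 and 611 CPM against 721, 880.5, 585, 665 and 594 CPM, with the same tumours highest. The epsilon subunit Atp5e, a small part of the central stalk, had 94.3, 73.7, 89.3, 74.3 and 90.2 CPM against 61.0, 89.6, 81.0, 67.4 and 65.5 CPM. Tumours 1, 4 and 5 of the deleted-labelled group were below every wild-type tumour, and the log2 fold change of -0.21 (SE 0.12, adjusted p = 0.759 by edgeR) did not pass.

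The c-ring of ATP synthase is built from a protein encoded by 3 genes. Atp5g3 was the main one, at 144, 158, 158, 142 and 127 CPM and 132, 221, 136, 162 and 130.5 CPM, and Atp5g1 made up 14.6% to 17.5% of the sum of both per kb in every tumour, the most even share of these families. The size of that share depends on the annotated exons, which merge to 4912 bases for Atp5g1 and 2181 for Atp5g3. Without regard to length, the wild-type means were 63.3 CPM for Atp5g1 and 146 CPM for Atp5g3. Atp5g2 made up 5.39% to 10.03% of its sum with Atp5g3. That gene shares 36.7% of its 50-base words with the chromosome 7 pseudogene Gm10175, which was given 14030 counts against 1181 for Atp5g2, so its level is uncertain. The log2 fold changes were 0.05 for Atp5g1, 0.01 for Atp5g2 and 0.10 for Atp5g3, each smaller than its SE.

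The 15 untested members were the 7 named -ps, the tissue forms Cox6a2, Cox8b, Cox8c and Cox7b2, the pseudogenes Cox6c2, Ndufa11b and Ndufs6b, and the second row of Atp5o. None had more than 22 counts over the 10 libraries.

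Across the 10 tumours the mitochondrial and nuclear sums were loosely related. On the log2 CPM scale Pearson's r was 0.44 and Spearman's rho 0.44 (n = 10), given without a test, since both sums share each library and its scaling. Without deleted-labelled tumours 2 and 5, the farthest from the median of the nuclear sum, r was 0.19. It was 0.10 without deleted-labelled tumour 2 alone and 0.68 without deleted-labelled tumour 1, so its size rests on these tumours, which were left out singly after the data were seen.

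**Figure D5:**
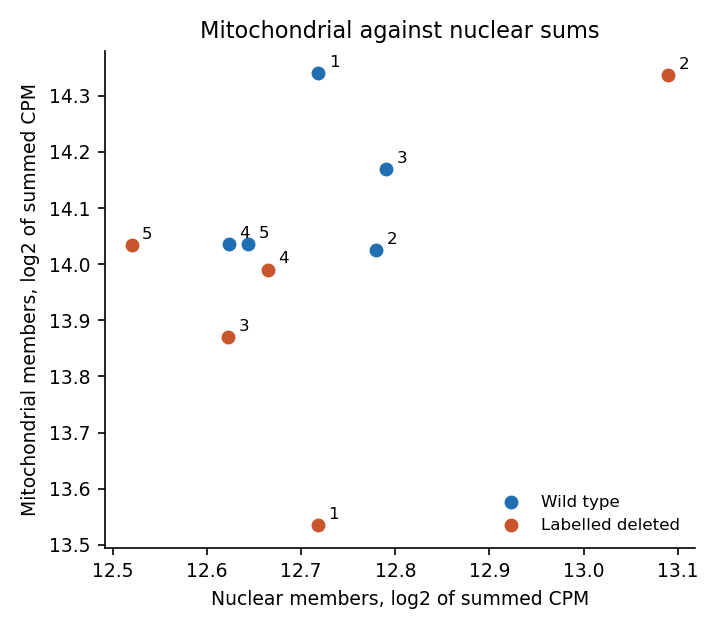
Log2 of the summed CPM of the mitochondrial members against that of the nuclear members, 1 point per tumour with its replicate number, wild type in blue and deleted-labelled in orange. Deleted-labelled tumour 2 lies at the upper right and deleted-labelled tumour 1 at the bottom, with the other 8 in between; r over the 10 points is 0.44.

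Within each genome the members were more alike than between them. The median pairwise Spearman's rho over the 10 tumours was 0.56 within mitochondrial members, 0.43 within nuclear members and 0.28 between the 2 sets, and it was 0.006 between every 20th tested gene. Among the mitochondrial members without a near-identical copy the median was 0.78. Without deleted-labelled tumours 1 and 2 the values were 0.37, 0.40 and 0.21. Of the 91 nuclear members, 69 (75.8%) had an r over 0.5 with the nuclear sum, against 11.1% of all tested genes, a relation in which each is part of its sum. With the mitochondrial sum, of which they are no part, 43 (47.3%) passed 0.5, against 20.6% of all tested genes. The nuclear members closest to the nuclear sum were Atp5pb of the ATP synthase stalk, at r = 0.97, and Ndufb9 of complex I, at r = 0.96. The row of mt-Co3 had r = -0.39 with the nuclear sum. Its copy Gm28437 held 49.6% to 76.3% of the counts of that pair, the most in deleted-labelled tumour 2. The r of the pair was not computed.

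Promoters of the nuclear members were searched for 3 short words, as a description. Windows of 300 bases, 250 before to 50 after the RefSeq start on GRCm38.p6, were matched for 77 of the 106 nuclear members and 74 of the 91 tested ones. The words, searched on both strands, were GCGCANGCG for NRF1, a factor known to act on respiratory genes, AAGATGGCG for YY1 and ACCGGAAGT for ETS factors such as GABP. Of the members with 3 matches of the NRF1-type word in a window, Sdha, Uqcrc1 and Cox6a1 are printed and Ndufb4 is not. Ndufs6, a complex I subunit chosen after its match was seen, is the only member with 2 kinds of word. Capitals mark the matches, those that overlap being run together, and windows lie at chr13:74350191-74350490 (-), chr9:108936398-108936697 (+), chr5:115348909-115349208 (-) and chr13:73328433-73328732 (-), each read 5′ to 3′ towards the gene.
Sdha: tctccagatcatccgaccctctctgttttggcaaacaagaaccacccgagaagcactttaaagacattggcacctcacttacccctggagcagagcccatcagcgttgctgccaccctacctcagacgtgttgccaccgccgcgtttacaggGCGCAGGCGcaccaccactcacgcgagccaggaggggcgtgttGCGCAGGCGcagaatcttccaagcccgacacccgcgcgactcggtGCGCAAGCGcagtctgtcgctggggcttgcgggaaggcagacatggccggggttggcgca
Uqcrc1: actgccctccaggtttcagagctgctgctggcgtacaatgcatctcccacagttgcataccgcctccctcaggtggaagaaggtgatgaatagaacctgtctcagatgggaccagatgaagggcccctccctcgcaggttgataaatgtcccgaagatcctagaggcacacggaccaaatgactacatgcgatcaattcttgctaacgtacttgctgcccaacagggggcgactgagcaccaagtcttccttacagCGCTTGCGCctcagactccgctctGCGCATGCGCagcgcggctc
Cox6a1: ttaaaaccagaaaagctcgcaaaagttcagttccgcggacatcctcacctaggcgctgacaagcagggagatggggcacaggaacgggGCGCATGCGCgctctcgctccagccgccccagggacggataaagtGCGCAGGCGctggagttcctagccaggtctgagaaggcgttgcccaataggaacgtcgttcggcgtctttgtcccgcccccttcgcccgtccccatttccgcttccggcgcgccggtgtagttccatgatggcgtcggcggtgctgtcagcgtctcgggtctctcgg
Ndufs6: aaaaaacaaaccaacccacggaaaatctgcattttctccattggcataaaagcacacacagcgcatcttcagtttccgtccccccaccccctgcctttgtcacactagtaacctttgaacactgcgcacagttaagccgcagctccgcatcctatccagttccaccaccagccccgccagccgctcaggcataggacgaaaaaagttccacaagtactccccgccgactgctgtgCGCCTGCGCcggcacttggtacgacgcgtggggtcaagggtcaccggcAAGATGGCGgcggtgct
The NRF1-type word was found in 22 of the 74 members (29.7%), in 13.5% of all tested genes with a window and in 7.03% of all 27025 genes of the table. The YY1-type word was found in 8 members (10.8%), against 3.13% and 1.64%. The ETS-type word was found in 1 member (1.35%), against 2.25% and 1.21%. In the 150 bases before the start alone, the YY1-type word was left in 1 member (1.35%), against 0.827% of all tested genes. At least 1 of the words stood in a window of 30 of the 74 members, some of which had more than 1 window. In a window where the word overlaps its own reverse complement it was counted once per strand, as happened in those of Uqcrc1 and Cox6a1. Sdha, Uqcrc1, Cox6a1 and Ndufb4, each with 3 matches, were all highest in deleted-labelled tumour 2, as were 60 of the 91 tested nuclear members. Members with and without a word were not compared in that tumour. A match is a description of these letters, and no binding was measured.

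Genes that support the chain from outside the rule were compared in the same fit, and 0 of each list were called. The counts above and below 0 stand beside 55.1% of all tested genes above 0. Genes of a list share the 10 libraries, so they are not separate observations. Of 36 regulators of mitochondrial gene expression and biogenesis, 29 were above 0 and 7 below, with a median log2 fold change of 0.08. The smallest p among them was that of Pprc1, a coactivator of respiratory genes, with 55.8, 57.4, 61.2, 63.1 and 53.0 CPM in wild-type and 69.2, 62.9, 62.8, 62.6 and 72.4 CPM in deleted-labelled tumours and a log2 fold change of 0.18 (SE 0.08, adjusted p = 0.759 by edgeR). The groups overlapped in 1 wild-type tumour, number 4, which lay above deleted-labelled tumours 2, 3 and 4. Fastkd1, which handles mitochondrial RNA, had a log2 fold change of 0.37 (SE 0.18, adjusted p = 0.759 by edgeR).

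Of 43 assembly factors outside the rule, 21 were above 0 and 22 below, around a median of -0.002. Pet100, a complex IV assembly factor, had 13.8, 10.2, 11.6, 10.6 and 14.2 CPM in wild-type and 8.81, 10.1, 9.36, 8.01 and 9.73 CPM in deleted-labelled tumours, all of the latter below the lowest wild-type value. Its log2 fold change of -0.39 (SE 0.14, adjusted p = 0.759 by edgeR) did not pass, nor did that of Sdhaf1, a complex II factor, with a log2 fold change of -0.36 (SE 0.13, adjusted p = 0.759 by edgeR). Of 18 tested electron carriers and exchangers, 14 were above 0 and 4 below, with a median of 0.08. Pdss1, which makes the tail of ubiquinone, had 6.21, 5.74, 4.79, 5.37 and 6.05 CPM against 8.54, 18.4, 8.37, 7.85 and 7.17 CPM, without overlap and with deleted-labelled tumour 2 far above the others. Its log2 fold change of 0.84 (SE 0.27, adjusted p = 0.759 by edgeR) did not pass, and Coq4, also of ubiquinone synthesis, had a log2 fold change of 0.45 (SE 0.18, adjusted p = 0.759 by edgeR).

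The 20 tricarboxylic acid cycle genes had 17 above 0 and 3 below, around a median of 0.10. Among them Dlst, of the oxoglutarate dehydrogenase, had 132, 131, 136, 126 and 124 CPM against 148, 209.8, 118, 138 and 131 CPM, highest in deleted-labelled tumour 2. Its log2 fold change of 0.20 became -0.00737 without deleted-labelled tumours 1 and 2. The 78 tested genes of the mitochondrial ribosome had 37 above 0 and 41 below, and the smallest p values were those of Mrps27 at 0.28 (SE 0.13) and Mrpl34 at -0.18 (SE 0.09). Of 17 tested hypoxia and glycolysis genes, 15 were above 0 and 2 below, with a median of 0.37, where 55.1% of all tested genes were above 0. Adm, adrenomedullin, had 3.54, 8.20, 4.71, 5.98 and 8.47 CPM against 37.0, 8.66, 14.7, 8.81 and 6.25 CPM, highest in deleted-labelled tumour 1, as were 27.9% of all tested genes. Its log2 fold change of 1.29 (SE 0.49, adjusted p = 0.759 by edgeR) did not pass. That value came to 0.64 without deleted-labelled tumour 1 and to 1.48 without tumour 5 of the same group. Ndrg1, a hypoxia-responsive gene, did not pass either, with a log2 fold change of 0.40 (SE 0.15, adjusted p = 0.759 by edgeR).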

How the data were processed

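Polyadenylated RNA of 10 tumours was sequenced. The deposited table holds the authors' estimated counts for each gene, of which 7.96% were not whole (18.0% for the members and 59.2% for the mitochondrial ones), and, per sample, values on a log2 scale whose transformation is not named in the labels. Per the submitters' processing notes, HISAT2 2.2.1, RSEM 1.3.3, DESeq2 1.32.0, bcl2fastq 2.0 and FastQC 0.11.9 were used with build mm10. Their roles, the annotation and the strand setting are not given in these notes. Estimated counts were rounded and tested with edgeR 4.0.16 (R 4.3.3; filterByExpr with a minimum count of 10, TMM scaling, robust glmQLFit, glmQLFTest, Benjamini-Hochberg over all tested genes), after testing the script on simulated data. CPM values use TMM-scaled library totals. Alternatives used limma 3.58.1, DESeq2 1.42.0, other scalings and filters, the deposited log2 values, leaving out tumours, and the number or code of the titles as a block.

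Exon lengths and coordinates came from GENCODE M21 (GRCm38), and copies were found as shared words of 50 bases between annotated transcripts. Exon length is that of all annotated exons of a gene merged, so orders and shares per kb depend on the annotation. The members and all lists were chosen with earlier results of these data known. Named members were all mitochondrial ones, in each complex the 2 with the highest level per kb in wild-type tumours and the 2 with the smallest p, the isoform pairs, of each outside list the 2 with the smallest p, and the 5 genes closest to each sum; 1 gene of an outside list is not reported here. Sums, shares and correlations were given no test. Same-numbered tumours were not paired: the correlations of their deviations were 0.07, 0.11, 0.32, -0.02 and 0.39.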

Additional observations from a re-analysis of the deposited data

Results flagged for a closer look

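In 92 checks (46 measures in 2 groups of 5), 7 values stood apart from the other 4 of their group by Dixon's test at the 95% level, where chance alone gives about 1 in 20. Genes were checked on the log2 of their CPM, whereas the values and ranges given here are CPM. The share of counts in nuclear members was 0.866% in deleted-labelled tumour 2, against 0.587% to 0.655% in the other 4. In the same tumour Cox4i1 had 372 CPM (236 to 268 in the others), Cox8a 164 CPM (106 to 120.4) and Sdhd 111 CPM (67.3 to 77.5). In deleted-labelled tumour 1, mt-Atp8 had 137 CPM (209 to 244 in the others) and Cox6b2 0.445 CPM (3.34 to 5.79). Ndufaf4 had 12.1 CPM in wild-type tumour 5, against 16.8 to 18.9 CPM in the other 4 wild-type tumours.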

How the results depend on the processing

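No member was called under any of the 24 alternatives, and all genes together gave 0 calls under each except DESeq2, with 7. Leaving out each tumour in turn, the median log2 fold change ran from -0.28 to -0.09 for mitochondrial members and from -0.10 to 0.04 for nuclear ones, the difference in share of counts from -0.284 to -0.0579 and from -0.0347 to 0.0350 percentage points, and the log2 ratio from -0.25 to -0.08; the value nearest 0 for the mitochondrial median, share and ratio was that without deleted-labelled tumour 1. Of 57 tested genes whose fold changes were refitted (43 members; not the genes closest to each sum), 34 kept their sign in every fit, and 23 (22 members, 3 of them mitochondrial) changed it in at least 1, none of them past the threshold in any. Without the 2 farthest tumours r between the sums was 0.19. In the 150 bases before the start, 14 members (18.9%) held the NRF1-type word, 1 (1.35%) the YY1-type and 0 the ETS-type, against 9.48%, 0.827% and 1.39% of all tested genes.

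Signs changed as follows (log2 fold change). Leaving out 1 tumour gave mt-Co2 -0.13 to 0.0630, mt-Atp6 -0.23 to 0.13, mt-Nd4l -0.0403 to 0.28, Ndufa2 -0.0980 to 0.0687, Ndufa8 -0.0732 to 0.0374, Ndufaf1 -0.0320 to 0.0272, Sdhd -0.19 to 0.00582, Sdhb -0.0219 to 0.20, Uqcr10 -0.15 to 0.0479, Cox6a1 -0.21 to 0.0697, Cox7a1 -0.0476 (without deleted-labelled tumour 2) to 1.87, Atp5b -0.0175 to 0.13, Cox4i1 -0.13 to 0.0529, Cox4i2 -0.20 to 0.38, Cox7a2 -0.12 to 0.0390, Atp5g1 -0.0882 to 0.12, Atp5g2 -0.12 to 0.16 and Atp5g3 -0.0569 to 0.16. Without deleted-labelled tumours 1 and 2, Ndufa2 was -0.15, Ndufaf1 -0.0481, Sdha -0.0181, Sdhb -0.0666, Uqcrc1 -0.0306, Atp5a1 -0.0784, Atp5b -0.0819, Atp5g1 -0.0909, Atp5g3 -0.0337 and Dlst -0.00737. With the chromosome 1 copies added, an alternative chosen after seeing the data, mt-Nd4l was -0.23, where the construction itself adds counts, and Ndufaf1 -8.32e-05. Ndufaf1 was -0.00119 with DESeq2, -0.00628 with limma-voom, -0.0200 with upper quartile scaling and -0.00441 without a filter on low counts, where Ndufa2 was -0.000570. Ndufa2 was -0.00861 with limma-voom, -0.0174 with upper quartile scaling and -0.00253 from the deposited log2 values. Cox4i1 was 0.00232 with DESeq2, 0.00274 with DESeq2-type size factors, 0.00484 with total counts and 0.00435 with a filter of 1 CPM in 5 libraries, and Atp5g2 was -0.00413 with upper quartile scaling. The cause of each change of sign was not tested, and Cox7a1 had no value under the filter of 1 CPM.

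The titles number the tumours of both groups 1 to 5, but the numbers do not pair them by the labels or the data: 2 of the 5 wild-type tumours, 3 and 5, correlated best with their own number. With the number as a replicate block, 0 genes and 0 members were called, the medians were -0.24 (mitochondrial) and -0.02 (nuclear), Ndufa2 was -0.00558 and Ndufaf1 -9.94e-05. The difference in log2 ratio was -0.18, which this block could not change, since each number holds 1 tumour of each group. With the code number of the titles as a block, chosen after seeing the data, the medians were -0.13 and -0.01, mt-Co2 was 0.0668, mt-Atp6 0.0523, Ndufa2 -0.15, Ndufaf1 -0.00534, Cox6a1 0.0528, Ndufa4 0.0223 and Atp5g1 -0.0108. Deleted-labelled tumours 1 and 4, alone under their code numbers, add nothing to these values. Deviations of the 5 pairs of tumours that share a code across groups correlated at -0.47 to 0.39 (median 0.22), and those of the other 20 pairs at -0.40 to 0.43 (median -0.05). Depth limits the rarest members: Cox7a1 rests on 203 counts and Cox4i2 on 155, and counting error there is not separated from the spread between tumours.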

Other observations

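Both mitochondrial ribosomal RNAs, which are not members, had a log2 fold change above 0, unlike 11 of the 12 mitochondrial members. The large one, mt-Rnr2, had 525, 489, 438, 379 and 337 CPM in wild-type tumours 1 to 5 and 844, 794, 423, 515 and 446 CPM in deleted-labelled ones, with a log2 fold change of 0.48 (SE 0.22, adjusted p = 0.759 by edgeR). Deleted-labelled tumours 1 and 2 were the highest of the 10, and tumour 1 of that group was at the same time the lowest in 9 of the 12 mitochondrial members. The small one, mt-Rnr1, had 286, 211, 219.8, 209.9 and 159.9 CPM and 247, 317, 234, 213 and 251 CPM, with a log2 fold change of 0.22 (SE 0.16, adjusted p = 0.761 by edgeR). Without deleted-labelled tumours 1 and 2 the values were 0.09 for mt-Rnr2 and 0.10 for mt-Rnr1.

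The genes outside the mitochondrial genome closest to the mitochondrial sum over the 10 tumours were Lrrc66, Gm13066, Gstm4, Pgd and Atp6v1c1, with Pearson's r of 0.96, 0.95, 0.95, 0.94 and 0.94. Pgd, an enzyme of the pentose phosphate pathway, ranged from 163 to 286 CPM, and Gstm4, a glutathione transferase, from 3.11 to 14.1 CPM. The closest to the nuclear sum were Etfa, Higd1a, Phf5a, Gfm1 and Churc1, with r of 0.99, 0.96, 0.96, 0.96 and 0.94. Etfa, an electron transfer flavoprotein that feeds the ubiquinone pool, ranged from 56.5 to 91.8 CPM. These were picked as the highest of all tested genes over 10 tumours that include deleted-labelled tumours 1 and 2, and they are a description only.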
